A study of Sus scrofa with 41 samples.

Results

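The genes described here build the fixed frame of the sarcomere, the repeating contractile unit of striated muscle, and were taken by symbol from a list of 9. The table of gene names gave an Ensembl identifier for 7 of them, out of 25880 genes in the files: NEB, MYBPC1, MYBPC2, ACTN2, ACTN3, MYOM1 and MYOM2. The other two, TTN and LDB3, were not analysed here. All 7 passed the filter on low counts, which left 11146 genes.

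A sarcomere runs from one Z-disc to the next. At the Z-disc, alpha-actinin (ACTN2 and ACTN3) ties together the thin actin filaments, and nebulin (NEB), one of the largest proteins of muscle, lies along each thin filament. In the middle of the sarcomere, myomesin (MYOM1 and MYOM2) ties the thick myosin filaments together at the M-band, and myosin-binding protein C (MYBPC1 and MYBPC2) sits in stripes along the thick filament. Several of these proteins come in a pair of related forms: MYBPC1 is known as the slow-fibre form and MYBPC2 as the fast-fibre form, ACTN3 is confined to fast fibres while ACTN2 is found in all fibres, and MYOM2 is the form of fast fibres.

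The samples were 1 RNA sequencing library each from the psoas major, a loin muscle, of uncastrated male pigs sampled at slaughter, 13 of the Danbred Duroc breed and 28 of Danbred Landrace. The question was how expression relates to the feed conversion ratio (FCR), the feed eaten per weight gained, so that a low FCR means an efficient pig. FCR ran from 1.83 to 2.18 in Duroc and from 1.92 to 2.25 in Landrace, and age from 131 to 156 days and from 147 to 166 days. The RNA integrity number (RIN), where a higher number means less degraded RNA, had a median of 8.2 in Duroc (7.0 to 8.8) and of 8.0 in Landrace (6.5 to 8.3).

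Counts on genes were 22188911 to 25954816 read pairs per pig, and these were 69.9 to 80.9% of the pairs of a library. The pigs fell into 5 batches of 1, 15, 9, 5 and 11 pigs. Duroc 2 was the sole pig of its batch, so the batch term of the models takes up this pig and it adds nothing to the other terms. Markers of skeletal muscle fibres (ACTA1, CKM and TNNT3, 3 of 6 listed with an identifier) summed to between 102130 and 199074 CPM (counts scaled to an equal library total) in every pig. Landrace 8 stood apart in fibre type. The slow minus fast fibre score is the mean scaled level of 6 slow-fibre genes (of 8 listed) minus that of 5 fast-fibre genes (of 9 listed). The listed myosin heavy chains MYH7, MYH1, MYH2 and MYH4 had no identifier and are not part of it. The score of Landrace 8 was 4.48, against medians of -0.30 in Landrace and 0.49 in Duroc and a highest Duroc value of 2.03.

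The 7 sarcomere genes together took between 1.40 and 3.55% of a pig's counts on genes. Levels below are CPM scaled by TMM factors. They are compared between pigs and not between genes, since no transcript lengths were used. In bulk muscle, fewer fibres of a type and less RNA per fibre cannot be told apart.

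NEB (ENSSSCG00000016397) lies on chromosome 15 from 546187 to 766131 of Sscrofa11.1, a span of 219.945 kb with introns. Its level was 2998 CPM in the lowest Duroc pig, 6679 CPM in the median one and 8386 CPM in the highest. In Landrace the lowest, median and highest levels were 3887, 7191 and 9661 CPM. The ranges overlapped. The lowest pig of all was Duroc 2, which stood at -1.25 from the median of all pigs on the log2 scale and had a RIN of 8.4. The next lowest were pigs with low RIN, namely Duroc 10 (RIN 7.0) at -0.89 and Landrace 27 (RIN 6.6) at -0.87.

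The pair of Z-disc cross-linkers varied differently. ACTN2 (ENSSSCG00000010144; chromosome 14, 54670727 to 54742717) ran from 1344 CPM over a median of 2377 CPM to 2863 CPM in Duroc. In Landrace it ran from 1323 over 1897 to 4147 CPM. The highest value belonged to Landrace 8, which exceeded every other pig. ACTN3 (ENSSSCG00000038323; chromosome 2, 5860386 to 5873779) had a lowest, median and highest level of 1897, 3623 and 4528 CPM in Duroc. In Landrace these were 1792, 4109 and 5448 CPM. Landrace 8, the highest pig for ACTN2, was the lowest for ACTN3, and Duroc 10 and Landrace 27 came next in the unstranded count, described below. The breeds overlapped for both genes.

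Of the thick-filament proteins, MYBPC1 (ENSSSCG00000000866; chromosome 5, 82557975 to 82651237) had Duroc levels of 2081, 3318 and 4892 CPM (lowest, median, highest). Its Landrace levels were 2397, 3063 and 5809 CPM. The lowest was Duroc 10 and the highest Landrace 8. MYBPC2 (ENSSSCG00000003218; chromosome 6, 55281991 to 55310184) had Duroc levels of 5108, 6465 and 10337 CPM. Its Landrace levels were 3124, 7923 and 10131 CPM. Here the order of the extreme pigs was turned around, with Landrace 8 lowest and Duroc 10 highest.

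The M-band genes had the narrowest spread. MYOM1 (ENSSSCG00000003693; chromosome 6, 103451206 to 103593093) ran from 434 over 920 to 1122 CPM in Duroc. In Landrace it ran from 547 over 941 to 1064 CPM. Duroc 10 and Landrace 27 were the lowest pigs of their breeds. MYOM2 (ENSSSCG00000015747; chromosome 15, 33529559 to 33606928) ran from 1113 over 1307 to 1633 CPM in Duroc and from 890 over 1308 to 1713 CPM in Landrace. The coefficient of variation over the 41 pigs was 14.4% for MYOM2 and 15.4% for MYOM1. It was 20.1% for NEB, 20.2% for ACTN3, 21.0% for MYBPC2, 22.1% for MYBPC1 and 25.0% for ACTN2. Among the 771 genes with a mean of at least 100 CPM the median was 21.2%, with quartiles of 16.1 and 28.7%. MYOM1 and MYOM2 lay below the lower quartile and the other 5 genes between the quartiles.

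**Figure D1:**
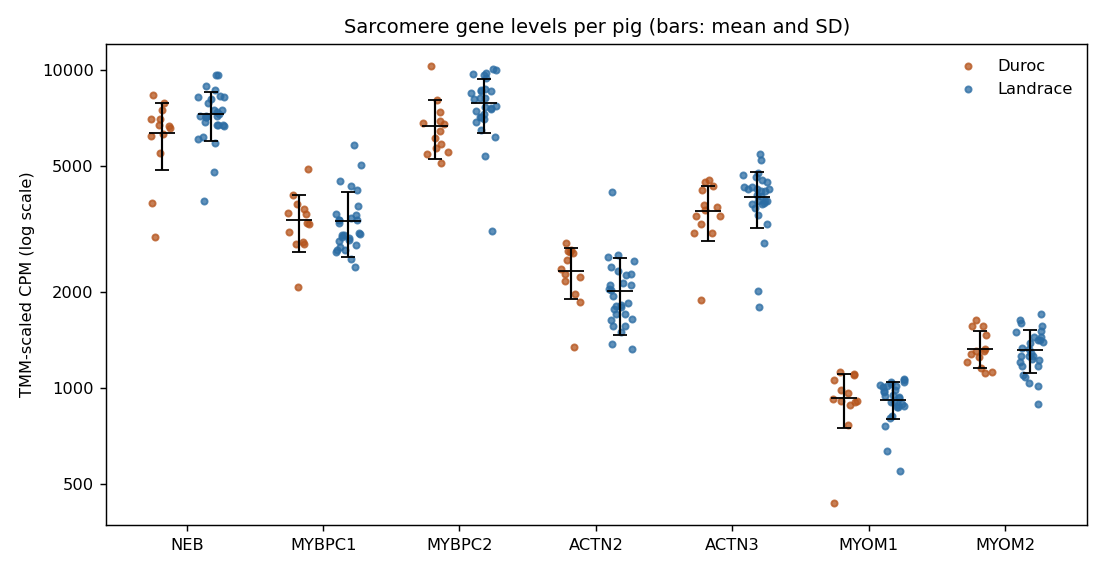
TMM-scaled CPM of the 7 sarcomere genes on a log axis, with 1 point per pig, Duroc in orange and Landrace in blue, and black bars for the mean and SD of each breed. The breeds overlapped for every gene. The lowest pig was Duroc 2 for NEB (2998 CPM), followed by Duroc 10 and Landrace 27, and Duroc 10 for MYOM1 (434 CPM), followed by Landrace 27.

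How the pairs were counted bears on ACTN3. The unstranded count leaves out read pairs that fall on a pair of overlapping genes, while the columns counted on 1 strand each keep them. For the other 6 genes the sum of both strand columns and the unstranded count differed by at most 0.0113%. For ACTN3 the strand columns held a median of 200018 pairs per pig and the unstranded column 104886. The share missing from the unstranded count ran from 42.6 to 80.0% of the strand-column pairs, with a median of 47.0%. CTSF, which codes for the lysosomal protease cathepsin F, had the same excess in every pig to within 4 pairs, with a median of 887 pairs in the unstranded column and 100349 in the strand columns. ACTN3 and CTSF thus lacked the same number of pairs. In all, 1529 of the 11146 genes tested (13.7%) lacked over 10% of their strand-column pairs.

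This share moved with RNA integrity. It was 80.0% in Landrace 27 (RIN 6.6), 76.5% in Duroc 10 (RIN 7.0) and 67.9% in Landrace 1 (RIN 6.5). In the 35 pigs with a RIN of 7.5 or above it ran from 42.6 to 57.6%, and in the 6 pigs below that from 53.7%. Its correlation with RIN was -0.834 (permutation p = 1e-05, the smallest that 100000 permutations can give; Spearman -0.723, p = 1e-05). Without the 2 pigs farthest from the median RIN it was -0.733, and within batches 2, 3 and 5 it was -0.953, -0.550 and -0.821. Its correlation with FCR was 0.00607 (permutation p = 0.970, Spearman 0.106, p = 0.505). Adjusted over these 2 relations, the p-values were 2e-05 and 0.970. With the strand columns, ACTN3 was at 6332 ± 843 CPM (SD, n = 13) in Duroc and at 7467 ± 1413 CPM (SD, n = 28) in Landrace. With the unstranded column these were 3606 ± 711 and 3986 ± 796 CPM. Landrace 27 and Duroc 10, low in the unstranded count, were at 8444 and 6772 CPM with the strand columns. These values lay above the strand-column medians of their breeds (7611 CPM in Landrace and 6438 CPM in Duroc). For ACTN3, the values of the joint model of both breeds and the correlations with RIN, FCR and the fibre score are given below under both countings. Its values within breeds and its correlations with other genes are those of the unstranded count.

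**Figure D2:**
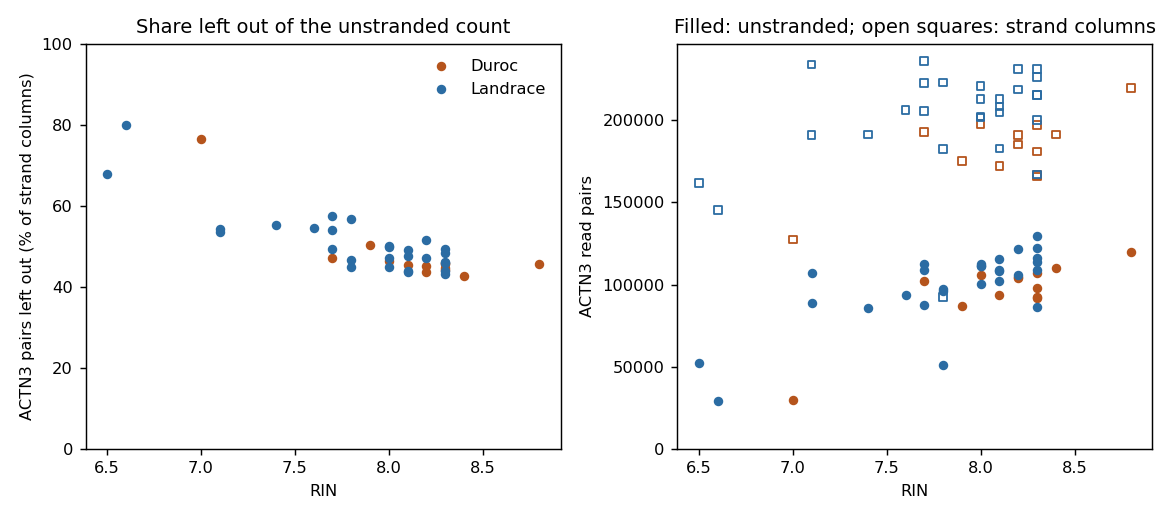
Left, the share of ACTN3 read pairs missing from the unstranded count, in percent of the strand-column pairs, against RIN. Right, ACTN3 read pairs in the unstranded column (filled circles) and in both strand columns together (open squares), 1 point of each per pig. The share was 42.6 to 57.6% at a RIN of 7.5 or above and reached 80.0% in Landrace 27.

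Breed was compared in a joint model of FCR, RIN, age, breed and batch, fitted to all genes with the quasi-likelihood test of edgeR and a threshold of 0.1 on the Benjamini-Hochberg adjusted p over 11146 genes (FDR). A sarcomere gene past that threshold is said to be called. In Landrace, 3 of the 7 genes were called higher than in Duroc, namely NEB and the fast-fibre genes MYBPC2 and ACTN3. None was called lower. Over all genes tested 15.6% were called higher in Landrace, 17.5% lower and 33.1% in either direction, and all 3 calls lay in the direction that 15.6% of genes share.

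The log2 change of NEB was 0.36 (SE 0.10, FDR 0.00853), or 1.28-fold. That of MYBPC2 was 0.54 (SE 0.13, FDR 0.00261), or 1.46-fold, and that of ACTN3 was 0.55 (SE 0.14, FDR 0.00466), also 1.46-fold. With the strand columns ACTN3 was again 0.55 higher (FDR 0.00111). The partners of the last pair were not called. ACTN2 had a log2 value of -0.22 with an approximate 95% interval from -0.52 to 0.09 (FDR 0.318), and MYBPC1 one of 0.08 from -0.19 to 0.35 (FDR 0.720). The M-band genes were not called either, with 0.16 for MYOM1 (-0.06 to 0.37, FDR 0.304) and 0.13 for MYOM2 (-0.07 to 0.33, FDR 0.369).

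The 3 calls held in each of 41 fits that left out 1 pig, but they rest on the covariates. With breed alone in the model 0 of the 7 genes were called, and the log2 changes were 0.19 for NEB, 0.24 for MYBPC2 and 0.14 for ACTN3, while 2209 genes were called. The plain difference of mean log2 CPM within batches 2 to 5 was above 0 in 4 of 4 batches for MYBPC2 (0.27, 0.13, 0.41 and 0.37) and for ACTN3 (0.19, 0.11, 0.15 and 0.34). For NEB it was 0.27, -0.18, 0.28 and 0.13. For ACTN2 it was below 0 in all 4. When libraries were scaled by size only, the median of all genes moved to -0.18, NEB was no longer called (0.18, FDR 0.292) and ACTN2 was called lower (-0.40, FDR 0.0757). Measured from the median of all genes, NEB was at 0.36 and ACTN2 at -0.22 under both scalings.

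Fibre markers moved with breed in the joint model. Of the fast-fibre genes, 3 of 5 were called higher in Landrace, namely TNNT3 (0.60, FDR 0.00108), TNNI2 (0.55, FDR 0.00490) and TNNC2 (0.53, FDR 0.00295). Of the slow-fibre genes, 2 of 6 were called lower, TNNI1 (-0.79, FDR 0.0514) and ATP2A2 (-0.73, FDR 0.0903). ACTA1 (0.38) and CKM (0.24), markers of muscle fibres of any type, were called higher. The fibre score without covariates did not pass the threshold. It was 0.594 ± 0.855 (SD, n = 13) in Duroc and -0.276 ± 1.40 (SD, n = 28) in Landrace (permutation p = 0.0436, adjusted over 3 relations 0.131). With the score added to the model, NEB (0.26, FDR 0.131), MYBPC2 (0.23, FDR 0.160) and ACTN3 (0.28, FDR 0.175) were not called for breed, and MYBPC1 was called higher in Landrace (0.38, FDR 0.0515). In that fit 2198 genes were called, against 3692. The score holds genes from the same libraries and the same fibres, so it is no outside measure. Markers of other cells moved with breed too. All 3 endothelial genes tested, both smooth muscle genes, PAX7 of satellite cells and PDGFRA, 1 of 5 fibroblast genes, were called lower in Landrace. So were ADIPOQ, 1 of 3 adipocyte genes tested (-2.67, FDR 0.0451), and MYH6, 1 of 2 cardiac genes tested (-0.75, FDR 0.0871), while the other genes of these lists had values above 0 and were not called. The endothelial genes summed to between 48.0 and 146 CPM in Duroc and to between 28.2 and 118 CPM in Landrace, and the smooth muscle genes to between 21.6 and 187 CPM and between 9.99 and 150 CPM. Their part in the breed values was not tested.

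**Figure D3:**
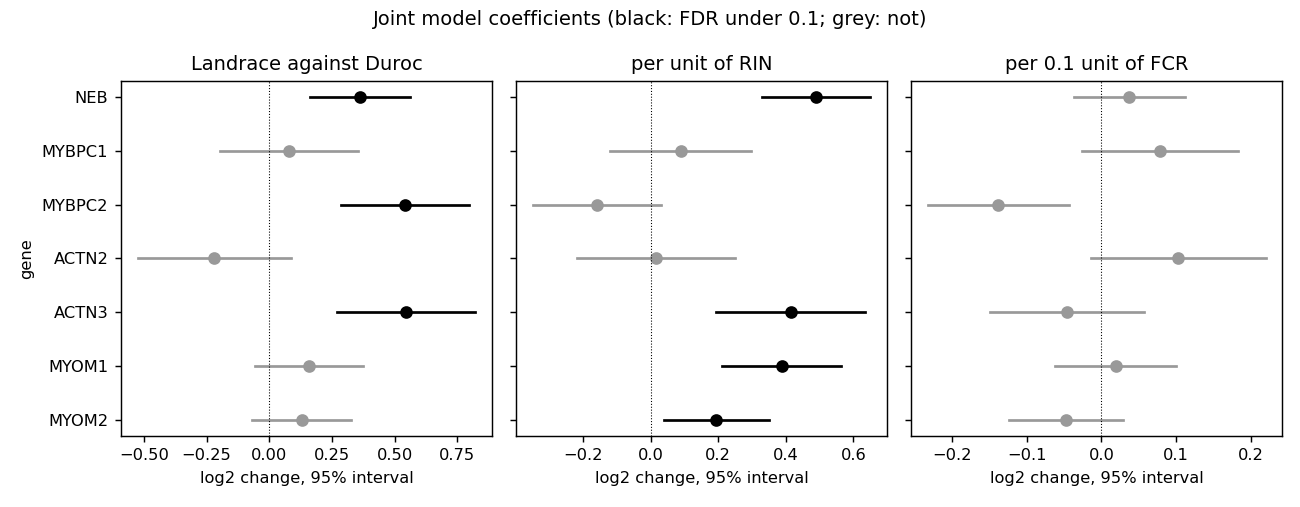
Log2 change of each sarcomere gene in the joint model, between breeds, per unit of RIN and per 0.1 unit of FCR, with approximate 95% intervals. Black marks an FDR under 0.1 and grey any other value. 3 genes are black for breed, 4 for RIN (ACTN3 among them as counted without strand) and 0 for FCR.

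RNA integrity was compared in the same model. There 4 of the 7 were called higher with RIN and 0 lower, against 23.9% higher, 27.9% lower and 51.8% in either direction among all genes. With the strand columns 3 of the 7 were called higher. NEB rose by a log2 value of 0.49 per unit of RIN (SE 0.08, FDR 9.1e-06), a fold of 1.41. MYOM1 rose by 0.39 (SE 0.09, FDR 0.000603) and MYOM2 by 0.19 (SE 0.08, FDR 0.0442). ACTN3 rose by 0.41 (SE 0.11, FDR 0.00293) in the unstranded count, but with the strand columns its value was -0.03 (SE 0.09, FDR 0.806). MYBPC1 (0.09, FDR 0.521), ACTN2 (0.02, FDR 0.927) and MYBPC2 (-0.16, FDR 0.187) were not called.

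NEB and MYOM1 were called for RIN in all alternative fits to both breeds together, leaving out each pig included. MYOM2 was not called without Duroc 10 or without Landrace 27 (FDR up to 0.190 over the fits without 1 pig). Its value without Landrace 27 was 0.13 per unit of RIN, against 0.19 with all pigs. ACTN3 and MYOM2 were not called without the 2 pigs with a RIN below 7 (0.30, FDR 0.108 and 0.19, FDR 0.160). There the genes called fell from 5775 to 3971 and the value of MYOM2 hardly moved. With RIN alone in the model, ACTN3 was at 0.21 (FDR 0.101) and MYOM2 at 0.07 (FDR 0.412), neither called. Without Landrace 8, MYBPC2 was called lower with RIN (FDR 0.0957). With libraries scaled by size only, the median of all genes moved to 0.30 per unit of RIN and 6 of the 7 genes were called, among 7107 of 11146 genes, but measured from that median NEB stood at 0.50, as before. Some markers of other cells moved with RIN too, with COL3A1 and PDGFRA (2 of 5 fibroblast genes) called higher, and HBB of red cells and CD3E (1 of 5 leukocyte genes) called lower. Of the fibre markers, 5 of 6 slow genes were called lower with RIN, and 3 of 5 fast genes lower and 2 higher. Their part in the RIN values was not tested.

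As measured, without covariates, the correlation of log2 CPM with RIN over the 41 pigs was highest for MYOM1 (0.599, permutation p = 0.00036; Spearman 0.333, p = 0.0345). It was 0.451 for NEB (p = 0.00467; Spearman 0.339, p = 0.0303). For ACTN3 it was 0.374 in the unstranded count (p = 0.0180; Spearman 0.134, p = 0.403) and -0.310 in the strand columns (permutation p adjusted over 7 relations 0.0812), so the direction turned with the counting and passed 0.1 both ways. MYOM2 also passed with the strand columns (0.298, adjusted permutation p 0.0812). MYBPC2 went the other way, with -0.422 (p = 0.00845; Spearman -0.511, p = 0.00086). These 4 were the relations with an adjusted p under 0.1 in a family of 7 in the unstranded count. With RIN alone in the edgeR model 6145 of 11146 genes were called, and 3 of the 7. The correlations of MYBPC1, ACTN2 and MYOM2 were 0.184, 0.169 and 0.194. With libraries scaled by size only they were 0.544, 0.510 and 0.657. MYBPC2 then turned to 0.101 (adjusted permutation p 0.516), so these correlations depend on the scaling. Without the 2 pigs farthest from the median RIN, MYOM1 was at 0.392 and MYBPC2 at -0.386. NEB fell to 0.243 (permutation p = 0.135) and ACTN3 to 0.142 (permutation p = 0.385), so these pooled correlations lean on those pigs. In the joint model without the same pigs, NEB was still called (0.43 per unit of RIN, FDR 0.00322). Within batches 2, 3 and 5 the correlation was 0.654, 0.838 and 0.760 for NEB and 0.919, 0.606 and 0.537 for MYOM1. For MYBPC2 it was -0.249, 0.110 and -0.634.

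**Figure D4:**
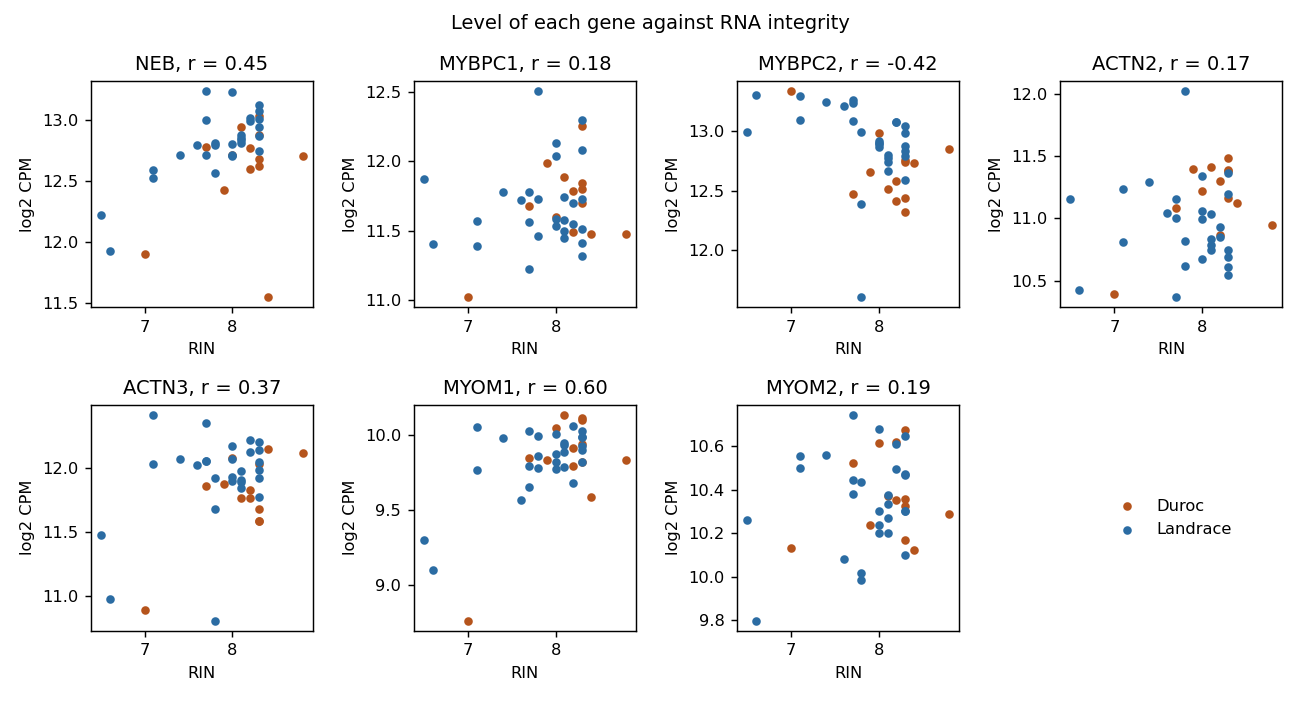
Log2 CPM of each sarcomere gene in the unstranded count against RIN, 1 point per pig, with Pearson's r over 41 pigs above each panel. The pigs with a RIN of 7.0 or below were low for NEB, ACTN3 and MYOM1 and above the median of all pigs for MYBPC2.

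Within breeds fewer genes were called. In the 28 Landrace pigs NEB (0.48 per unit, FDR 0.000212), MYOM1 (0.32, FDR 0.00637) and ACTN3 (0.34, FDR 0.0474, unstranded) were called, among 42.9% of 11020 genes. In the 13 Duroc pigs none of the 7 was called, nor was any of 10509 genes, although 1824 (17.4%) had an unadjusted p under 0.05. Among these were NEB (0.61, p = 0.0422), ACTN3 (0.87, p = 0.0188), MYOM1 (0.84, p = 0.0254) and MYOM2 (0.47, p = 0.0409) with edgeR. The difference between breeds, tested as a product term, had no called gene by edgeR or DESeq2 and 1 gene by limma, as well as 1 by edgeR without a low-count filter, none of them among the 7, with 541 edgeR genes (4.85%) at an unadjusted p under 0.05. For MYOM1 it was -0.40 (p = 0.0380, FDR 0.947, edgeR).

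Gene length went along with the RIN values. Of the genes tested, 9270 (83.2%) had a span in the RefSeq annotation. The median log2 change per unit of RIN was -0.25 in the 1766 genes of up to 10 kb and -0.08 in those of 10 to 20 kb. It was 0.03, 0.14 and 0.15 in the classes up to 50, 100 and 200 kb, and 0.16 in the 664 genes above 200 kb. NEB, the longest of the 7 genes, had the highest value of them, and MYOM1, the next longest at 141.888 kb, ranked second once ACTN3 (13.394 kb) was counted by the strand columns. The Spearman correlation of span with the RIN value was 0.39 over the 9270 genes. Over the 7 genes it was 0.43 with the unstranded count and 0.93 with the strand columns. These are descriptions across genes, which share the same libraries, and a span counts introns, which the RNA lacks after splicing.

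For FCR none of the 7 genes was called, and neither was any gene of the 11146 (0% called), although 968 genes (8.68%) had an unadjusted p under 0.05 with edgeR. In the same model DESeq2 called 5 genes and limma 0, none of them among the 7. With FCR alone in the model edgeR called 71 genes, again none of the 7. In the joint model, the lowest edgeR p among the 7 was that of MYBPC2. Its log2 value per 0.1 unit of FCR was -0.14 (SE 0.05, approximate 95% interval -0.23 to -0.04, edgeR p = 0.00675, FDR 0.529). This value lies on the side of less MYBPC2 in less efficient pigs, and it did not pass the threshold. With FCR alone in the model, MYBPC2 was at -0.02 (edgeR p = 0.643, FDR 0.928). In the joint model the intervals of the others held 0. They were -0.01 to 0.22 for ACTN2, -0.03 to 0.18 for MYBPC1, -0.15 to 0.06 for ACTN3, -0.12 to 0.03 for MYOM2, -0.04 to 0.11 for NEB and -0.06 to 0.10 for MYOM1. With the strand columns ACTN3 was at -0.09 (SE 0.05, edgeR p = 0.0511, FDR 0.553).

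Without covariates, the correlation of log2 CPM with FCR lay between -0.181 for MYOM2 and 0.226 for NEB, and none of the 7 had an adjusted p under 0.1 (permutation p = 0.255 and 0.156 for these genes; Spearman -0.155 and 0.0702). ACTN3 was at -0.0537 in the unstranded count and at -0.0705 in the strand columns. The sign turned between the breeds for 4 genes, with 0.394 in Duroc and -0.228 in Landrace for NEB and 0.374 and -0.472 for MYOM2. For MYOM1 these were 0.255 and -0.227 and for ACTN3 0.0693 and -0.365. In batches 2, 3 and 5 NEB was at 0.155, -0.868 and 0.371 and MYOM2 at -0.482, -0.776 and 0.0919. Within breeds MYBPC2 stood at -0.664 in Duroc and -0.324 in Landrace, below its pooled value of -0.126. In the model of the 13 Duroc pigs MYBPC2 had a log2 value of -0.19 per 0.1 unit (edgeR p = 0.0497, FDR 0.786), and in that of the 28 Landrace pigs one of -0.12 (p = 0.110, FDR 0.956). MYOM2 was at 0.01 in Duroc and at -0.12 in Landrace (edgeR p = 0.893 and 0.0318), and its product term of FCR and breed had p = 0.0458 and FDR 0.922, where 0 genes were called and 582 (5.22%) had an unadjusted p under 0.05 with edgeR. In the model used here no gene was called for FCR within a breed by edgeR, where the unadjusted p was under 0.05 for 564 genes (5.37%) in Duroc and 606 (5.5%) in Landrace. In Landrace edgeR called 3 genes without a low-count filter and 1 with age left out. DESeq2 called 10 genes in Duroc and 4 in Landrace. None of these was among the 7. Age called none of the 7 and 1.76% of all genes, with log2 values per 10 days from -0.20 for MYBPC1 to -0.05 for MYOM2.

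The 7 genes did not vary as a block. Of their 21 pairs, 14 had a Pearson correlation over the 41 pigs with a permutation p adjusted over the 21 pairs under 0.1, of which 11 were positive and 3 negative. On residuals of the joint model 13 did, 10 positive and 3 negative. The median over the pairs was 0.290 as measured and 0.267 on residuals, against -0.004 and -0.005 over all pairs of genes tested.

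The closest pair crossed structures. MYBPC1 of the thick filament and ACTN2 of the Z-disc correlated at 0.841 as measured (Spearman 0.828) and at 0.866 on residuals (Spearman 0.859), with permutation p = 1e-05 each. Without the 2 farthest pigs the values were 0.774 and 0.824, within breeds 0.925 in Duroc and 0.865 in Landrace, and within batches 2, 3 and 5 0.857, 0.902 and 0.770. Among all pairs of genes, 0.265% reached 0.8 as measured and 0.0418% on residuals. NEB went with the M-band genes, at 0.694 with MYOM1 and 0.569 with MYOM2 as measured and at 0.522 and 0.779 on residuals. ACTN3 and MYOM2, both genes of fast fibres, correlated at 0.584 and 0.663, with 0.174 in Duroc and 0.755 in Landrace as measured.

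The 3 negative pairs past the threshold all held MYBPC2. As measured it correlated at -0.463 with MYBPC1, at -0.532 with ACTN2 and at -0.382 with MYOM1, and on residuals at -0.597, -0.607 and -0.376. Landrace 8 was at an extreme of MYBPC2, MYBPC1 and ACTN2, and without the 2 farthest pigs the values with MYBPC1 and ACTN2 were -0.195 and -0.313 as measured and -0.489 and -0.446 on residuals. MYBPC2 and ACTN3 correlated at 0.479 on residuals but at 0.134 without the 2 farthest pigs, so this value rests on them. ACTN2 and ACTN3, the related pair of the Z-disc, were at -0.044 on residuals (permutation p = 0.782) and at -0.099 as measured (permutation p = 0.535). Within breeds the measured value was 0.516 in Duroc and -0.248 in Landrace, and within batches 2, 3 and 5 it was -0.517, -0.849 and 0.727, so the pooled value does not stand for the single groups.

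**Figure D5:**
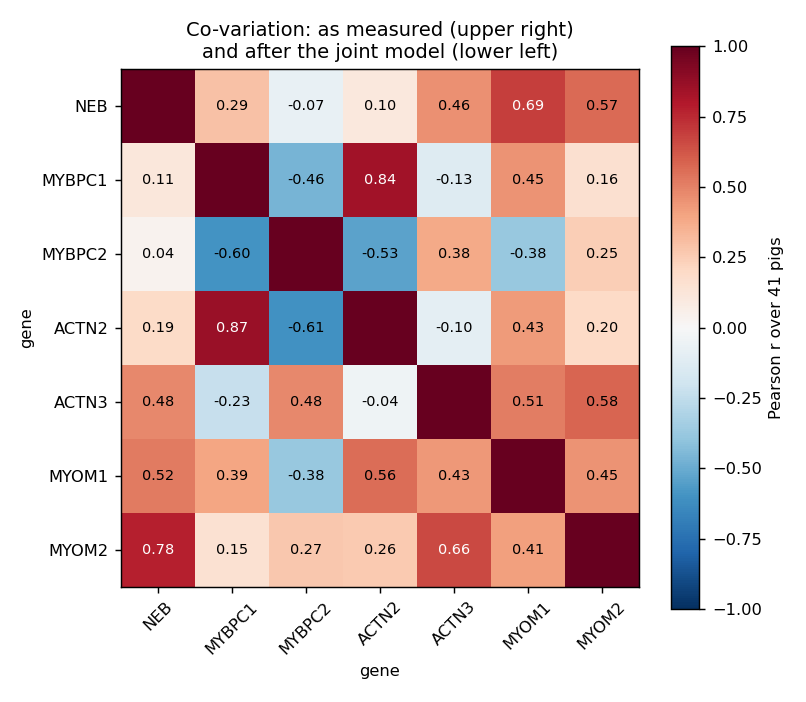
Pearson correlation of log2 CPM over 41 pigs for each pair of sarcomere genes, as measured above the diagonal and on residuals of the joint model below it. MYBPC1 and ACTN2 were the closest pair (0.84 and 0.87), and MYBPC2 was negative with MYBPC1, ACTN2 and MYOM1.

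Fibre type followed the same lines. The fibre score correlated with MYBPC2 at -0.709 (Spearman -0.587) and with ACTN3 at -0.667 (Spearman -0.701, strand columns -0.782), and with ACTN2 at 0.514 (Spearman 0.430) and MYBPC1 at 0.493 (Spearman 0.419). The permutation p was 1e-05 for the first 2 genes, 0.00069 for ACTN2 and 0.00117 for MYBPC1. Within Duroc MYBPC2 was at -0.321 and ACTN3 at -0.219, against -0.757 and -0.774 in Landrace. For MYOM2 the pooled value was -0.392 (permutation p = 0.0112), but Spearman's was -0.272 and the value without the 2 farthest pigs -0.288, with adjusted p of 0.119 and 0.106. The pooled value was -0.254 for NEB (permutation p = 0.108) and 0.060 for MYOM1 (permutation p = 0.687). With the score as a term of the joint model, 775 of 11146 genes were called for it. Among them were MYBPC1, MYBPC2, ACTN2 and ACTN3, but not NEB, MYOM1 or MYOM2. Without the 2 pigs farthest from the median score, MYBPC2 (-0.584) and ACTN3 (-0.533) kept an adjusted p under 0.1 over the 7 relations. ACTN2 fell to 0.295 (p = 0.0696) and MYBPC1 to 0.326 (p = 0.0439), and in batch 5 they were at -0.168 and -0.142.

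The ratio of 2 related genes within a library does not depend on how libraries are scaled. The log2 ratio of ACTN2 to ACTN3 had a lowest, median and highest value of -1.17, -0.52 and -0.10 in Duroc. In Landrace these were -1.68, -1.08 and 1.21. The ranges overlapped, but the mean was 0.37 lower in Landrace, as the value of -0.37 for Landrace minus Duroc shows (permutation p = 0.0266, adjusted over 9 tests of ratios 0.0797). It was below 0 in each of batches 2 to 5 (-0.57, -0.41, -0.21 and -0.36), and -0.45 with the strand columns. The ratio of MYBPC1 to MYBPC2 differed by -0.24 (permutation p = 0.185), with -0.43, -0.34, -0.19 and -0.24 in batches 2 to 5. That of MYOM1 to MYOM2 differed by 0.03 (permutation p = 0.768).

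The ratio of MYOM1 to MYOM2 rose with RIN (r = 0.465, permutation p = 0.0023, adjusted 0.0207; Spearman 0.375, p = 0.0164), with 0.391 without the 2 farthest pigs. It did so in batch 2 (0.701) but hardly in batches 3 and 5 (-0.026 and 0.174). The ratio of MYBPC1 to MYBPC2 had a correlation of 0.363 with RIN (permutation p = 0.0234, adjusted 0.0797; Spearman 0.413, p = 0.00787), with 0.359 without those pigs. Within batches 2, 3 and 5 it was -0.055, 0.146 and 0.730. The ratio of ACTN2 to ACTN3 correlated with RIN at -0.140 (permutation p = 0.369) in the unstranded count and at 0.315 (permutation p = 0.0478, adjusted 0.108) with the strand columns. With FCR the 3 ratios correlated at 0.123, 0.008 and 0.163 in the order MYBPC, ACTN, MYOM (permutation p = 0.447, 0.962 and 0.308). The correlations of the ratios with the fibre score were 0.710, 0.797 and 0.389 in the same order.

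For each gene, the 3 genes of all tested with the highest correlation of residuals over the 41 pigs were named, as a description. MYBPC2 went with genes of fast, glycolytic muscle: the glycogen phosphorylase PYGM (0.879), the aldolase ALDOA (0.846) and the fast troponin TNNT3 (0.839). ACTN3 went with ATP2A1, the calcium pump of the fast-fibre reticulum (0.914), the kinase CAMK2A (0.868) and CAND2 (0.855), all with the unstranded count. MYBPC1 went with ACTN2, with SMPX, a small muscle protein (0.796), and with ST8SIA5 (0.795). ACTN2 went with MYBPC1, with INPP5A (0.772) and with the Z-disc protein PDLIM5 (0.768).

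NEB and the M-band genes had other neighbours. NEB went with DCP2, an enzyme that removes the cap of messenger RNA (0.782), with MYOM2 (0.779) and with a gene without a symbol (0.772). MYOM1 went with PRKAR2A, a regulatory subunit of protein kinase A (0.924), FBXO11 (0.905) and the chromatin remodeller SRCAP (0.897). MYOM2 went with DAB2IP (0.791), SEC24D (0.786) and EHBP1L1 (0.784).

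Other genes of the sarcomere frame were followed as lists by place, 35 of 44 of them tested. In Landrace 12 were called higher than in Duroc and 2 lower, against 15.6 and 17.5% of all genes, and with RIN 8 were called higher and 9 lower, against 23.9 and 27.9%. None was called for FCR. The median log2 change between breeds was 0.20 over the 14 Z-disc partners and 0.33 over the 7 M-band partners, against -0.0024 over all genes tested.

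Of the Z-disc partners 5 were called higher in Landrace and 0 lower. MYOZ1 of the calsarcins was 0.37 higher (FDR 0.00117), the PDZ-LIM proteins PDLIM3 and PDLIM7 were 0.78 (FDR 0.00179) and 0.51 (FDR 0.0120) higher, and MYPN, which binds both nebulin and alpha-actinin, was 0.30 higher (FDR 0.0150). With RIN the same list split. MYPN (0.36), SYNPO2 (0.32) and MYOT (0.31) were called higher, and 6 were called lower, among them CSRP3 (-1.75), TCAP (-0.59) and PDLIM7 (-0.58).

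Of the 7 M-band partners 4 were called higher in Landrace. Among them were TRIM55 (0.60, FDR 0.00111) and TRIM63 (0.68, FDR 0.0689), ubiquitin ligases that bind titin, and CMYA5 (0.37, FDR 0.00162). With RIN the related ligase TRIM54 was called lower (-0.48, FDR 0.00260). Among the 7 genes of thin filament capping and length, CAPZA2 of the barbed-end cap was called higher in Landrace (0.43, FDR 0.00197) and TMOD3 of the pointed-end cap lower (-0.55, FDR 0.0939). With RIN, CAPZA2 (0.31) and KLHL40, which stabilises nebulin (0.39), were called higher.

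Among the 3 titin ligands tested, the protease CAPN3 was called higher in Landrace (0.42, FDR 0.000794) and the stretch-responsive ANKRD2 lower (-1.11, FDR 0.0454). CAPN3 was also called higher with RIN (0.24, FDR 0.00547) and was the sole partner called for age, where it fell by 0.24 per 10 days (FDR 0.0995). ANKRD2 (-1.46) and ANKRD1 (-0.91) were called lower with RIN. Of the 4 chaperones, the myosin chaperone UNC45B was called higher in Landrace (0.41, FDR 0.00380), and the methyltransferase SMYD1 higher with RIN (0.86, FDR 6.2e-05).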

How the data were processed

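RNA from the psoas major of 41 pigs was sequenced, 1 library per pig. The authors used Trimmomatic 0.39 to trim reads and STAR 2.7.1a to align them to Sscrofa11.1 and count pairs on Ensembl 96 genes, and they deposited whole counts per gene without normalization or filtering. Columns give counts without strand, used here as in the study, and on 1 strand each. Pairs on overlapping genes drop out of the unstranded count, and without strand a gene and an antisense partner cannot be told apart. Counts on genes were 22188911 to 25954816 per pig. No library was held more than once, since each of 820 pairs differed beyond counting noise (lowest chi-squared per degree of freedom 18.2).

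Breed, FCR, RIN, age and batch came from the labels, and 14857 gene identifiers had a symbol. Genes were filtered with filterByExpr, scaled with TMM and fitted on FCR, RIN, age, breed and batch (5 levels) with edgeR 4.0.16 under R 4.3.3 (legacy quasi-likelihood fit and F test), with Benjamini-Hochberg FDR over all genes and a threshold of 0.1. Alternatives were DESeq2 1.42.0 with at least 5 counts in every pig, limma 3.58.1 with voom, other scalings, filters, covariates and samples, and both strand columns summed. DESeq2, limma and the fits across all genes gave the adjusted p-values. Log2 CPM had a prior count of 1. Correlations, ratios and scores were tested two-sided with 100000 permutations (SciPy 1.17.1, NumPy 2.4.6 and pandas 2.3.3 in Python 3.11.15; plots by matplotlib 3.10.9). Residuals are those of the joint model. Each pig is 1 animal, so the p-values measure the spread between animals.

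On simulated counts with 199 tested genes changed with FCR by a log2 value of 4 per whole unit (11126 genes), a larger change than that of any of the 7 genes, edgeR recovered 91.5% of them with 9% false calls, and with no gene changed it called 0.

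The genes and lists were chosen with earlier results of these data known. Named were the 9 listed genes, up to 4 partners per list with the smallest p in a comparison, and the 3 most alike genes of each. The planned comparison with exonic length used the RefSeq gene span instead, since no exonic lengths were used here, and pairs were formed among the 7 genes with an identifier. Leaving out each pig, the fibre score correlation and the strand columns for the RIN and FCR correlations were chosen after seeing the data. The values of 1 partner gene are not reported here.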

Additional observations from a re-analysis of the deposited data

Results flagged for a closer look

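For ACTN3, the strand columns held read pairs outside the main measurement, with a median of 47.0% of the pairs of that gene missing from the unstranded count. This was flagged because the signal lies in columns that the main comparisons do not use, while the other 6 sarcomere genes differed by at most 0.0113% between the countings. The check of single outlying pigs takes compared groups of 4 to 10 pigs. The breeds held 13 and 28, so it was not made. Whether the missing pairs come from ACTN3 or from CTSF was not tested.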

How the results depend on the processing

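No paired analysis was possible because the breeds are different animals and the labels give them no shared replicate numbers. Of the counts of called genes, pairs or ratios under an alternative, 240 stayed within 1.5 times the reported one and 5 did not. The 240 include fits without 1 pig and many comparisons of 0 with 0, so they are no measure of how firm single calls are. For breed, 0 genes were called with breed alone and 1 with the fibre score added, against 3. For RIN, 2 were called without the pigs with a RIN below 7, against 4. Without the 2 farthest pigs, 2 genes correlated with RIN, against 4, and 2 with the fibre score, against 5. Over all genes, 775 of 11146 were called for the score as a term of the joint model. The fits without 1 pig gave 3 for breed in each of 41 fits, 0 for FCR and age, and 3 to 5 for RIN.

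Of the values of single genes, 32 changed sign, and of these only ACTN3 for RIN had been called (-0.0308 with the strand columns). The cause was not tested. FCR values are per 0.1 unit and age values per 10 days. With library size only, breed values became -0.105 for MYBPC1, -0.0252 for MYOM1 and -0.0519 for MYOM2, FCR values 0.00546 for ACTN3 and 0.00931 for MYOM2, the RIN value 0.158 for MYBPC2 and the age value 0.0123 for MYOM2. The FCR by breed value of MYBPC2 became -0.00285 (limma -0.0124), and the RIN by breed values -0.0453 for NEB and -0.0179 for MYBPC2. In Landrace, FCR values became 0.0168 for NEB and 0.0124 for MYOM1. With age left out, the breed value of MYBPC1 became -0.0543, the FCR value of MYOM1 -0.00231, the RIN value of ACTN2 -0.00222, the RIN by breed value of NEB -0.0255 and the Duroc FCR value of ACTN3 -0.0114. With a term alone, breed values became -0.00381 for MYBPC1, -0.0129 for MYOM1 and -0.0143 for MYOM2, FCR values -0.00684 for ACTN2 and -0.0106 for MYOM1, and age values 0.0486 for NEB, 0.103 for MYBPC2 and 0.0367 for MYOM2. With the fibre score added, breed values became 0.0890 for ACTN2 and -0.00118 for MYOM2. Without a low-count filter, the RIN by breed value of NEB became -0.0189 and the Duroc FCR value of MYOM2 -0.0135 (DESeq2 -0.00493). The RIN call of MYOM2 (0.19) was also lost with batch as a number (0.15, FDR 0.102) and with the fibre score added (0.15, FDR 0.119). With RIN alone both MYOM2 (0.07, FDR 0.412) and ACTN3 (0.21, FDR 0.101) lost theirs, while MYBPC2 was called lower with RIN alone (-0.30) and with the fibre score added (-0.26).

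The 7 genes held 6853 or more counts in every pig, so counting error is small beside the spread between pigs. The limits are the single pig of batch 1, the 5 residual degrees of freedom of the Duroc model and the narrow range of FCR.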
